A study of Homo sapiens with 9 samples.

Results

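Cells make foreign compounds, steroids and bile acids soluble in 2 steps, first by adding or exposing a reactive group and then by attaching a water-soluble one. The first step is largely the work of cytochrome P450 enzymes (the CYP genes), which insert oxygen with electrons passed on by a reductase. In the second step the UDP-glucuronosyltransferases (UGT) attach glucuronic acid, the sulfotransferases (SULT) attach sulfate and the glutathione S-transferases (GST) attach glutathione. Hepatocytes are the main site of both steps, and hepatoma lines in culture are known to hold low levels of many of these enzymes. The members described here were the probe sets annotated with a single gene whose symbol belongs to CYP families 1 to 4, UGT families 1 and 2, the SULT family or the GST classes A, M, K, O, P, T and Z. This rule used names only and gave 62 of the 33297 probe sets on the array, for 61 of 18417 genes tested; UGT2A3 had 2 probe sets and the brighter one was used.

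The cells were Hep3B, a human hepatocellular carcinoma line, in 3 groups of 3 samples, each measured on 1 Affymetrix gene array. One group was transfected with an siRNA against YAP, the transcriptional coactivator encoded by YAP1 that the Hippo pathway restrains. The next was transfected with a nonsense siRNA, and the last was untreated. The cells of all groups were first grown for 24 h. Both transfected groups then received Oligofectamine and were cultured for 24 h afterwards, while untreated cells received neither reagent nor siRNA. For untreated cells the labels give no later culture time. A comparison with untreated cells therefore holds the transfection, and possibly the time in culture, as well as the siRNA. The sample titles begin with HUH although the other labels name Hep3B. The labels name 1 siRNA target and 1 cell line, and they do not say whether the 3 samples of a group were separate cultures, so the p-values measure the spread between these samples, which may be technical.

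The deposited values were log2 array signals, in which a difference of 1 is a doubling, and the medians of the 9 arrays lay within 0.06 of each other. The siRNA target YAP1 averaged 7.51 ± 0.03 after YAP siRNA, 8.70 ± 0.05 after nonsense siRNA and 8.70 ± 0.08 in untreated cells (SD, n = 3 each), so that 44.0% of the nonsense siRNA signal was left (limma adjusted p = 4.34e-09). Array means over 12 hepatocyte and hepatoma marker genes ranged from 10.38 to 10.49 after YAP siRNA, from 10.32 to 10.49 after nonsense siRNA and from 10.36 to 10.38 in untreated cells. Means over 12 leukocyte markers stayed between 6.86 and 6.98 and those over 13 stromal and endothelial markers between 6.80 and 6.90. Of these markers AHSG, a hepatocyte protein gene, was higher against nonsense siRNA by 0.29 (limma adjusted p = 0.0162), and COL1A2, a collagen gene of stromal cells, by 0.43 (adjusted p = 0.000538); their part in the results was not tested. Across genes, YAP siRNA replicate 3 and nonsense siRNA replicate 2 deviated from their group means together (r = 0.47), as did YAP siRNA replicate 3 and untreated replicate 3 (r = 0.34). Between nonsense siRNA replicate 2 and untreated replicate 3 the correlation was 0.07, so the 3 arrays did not all deviate together. Values without these 3 arrays are given for a part of the results that they change. In RNA of whole cultures, fewer cells with a transcript and less of it per cell cannot be told apart.

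Of the 61 members, 32 had a mean signal above 6.68, the 95th percentile of 341 olfactory receptor genes, which served as a rough background level because those receptors belong to sensory neurons of the nose. The other 29 lay at or under it, among them CYP3A4, CYP2C8, CYP2B6, GSTA1, GSTA2, UGT2B7, UGT2B17 and SULT1E1, which leaves little room to measure a fall. This level is no detection call, since probe sets differ in affinity, and 7 of the 12 leukocyte markers were above it. Above it were 11 of 16 GST genes, all 3 CYP1 genes, 7 of 11 CYP2 genes, 5 of 10 SULT genes, 4 of 12 CYP4 genes, 1 of 3 CYP3 genes and 1 of 6 UGT2 genes. A further 15 probe sets were annotated with several genes including one of these families. One of them named 9 UGT1A genes, so no UGT1 gene was a member.

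After YAP siRNA, 5 of the 61 members were higher than after nonsense siRNA and 0 were lower at a limma adjusted p under 0.05 over all genes. They were UGT2B4, CYP1A1, CYP1B1, CYP4F12 and SULT1C2, and all 5 lay above the background level. These 5 make 8.20% of the members, against 1.92% of all genes tested that were called higher and 2.61% called lower. Against untreated cells 4 members were higher and 0 lower, namely UGT2B4, SULT1C2, CYP1B1 and CYP2J2, or 6.56% of members against 1.63% of all genes higher and 1.46% lower. The split of all genes moved with scaling: against nonsense siRNA 354 higher and 480 lower became 460 and 408 with quantile normalization, and against untreated cells 300 and 269 became 350 and 181 with array medians subtracted. The members called under these scalings were 4 to 6, with 0 lower. The median difference of the 61 members was 0.04 against nonsense siRNA, where it was 0.01 over all genes, and 0.01 against untreated cells, where it was -0.01 over all genes. At an unadjusted p under 0.05, 13 members were higher and 1 lower against nonsense siRNA, and 13 higher and 3 lower against untreated cells. These are 23% and 26.2% of members, beside 15.8% of all genes in each comparison, both directions together. The count against nonsense siRNA fell to 3 without YAP siRNA replicate 1 or nonsense siRNA replicate 1. The share of all genes that passed fell too, from 4.53% to 2.9% and 2.31%. Against untreated cells the count was 1 without YAP siRNA replicate 1 or 2 and 2 without untreated replicate 1 or 2. There the share of all genes fell from 3.09% to 1.53%, 1.51%, 1.62% and 1.88%. Without nonsense siRNA replicate 2 the count against untreated cells was 8, all higher, where 4.01% of all genes passed. Without YAP siRNA replicate 3, nonsense siRNA replicate 2 and untreated replicate 3 the counts were 7 and 8, while 6.99% and 8.47% of all genes passed. The 7 were 6 higher and GSTO1 lower (-0.25, adjusted p = 0.0220), and the 8 were all higher. Both comparisons use the same 3 YAP siRNA arrays, so their calls are not independent.

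On every one of its 3 arrays the YAP siRNA group lay above all 6 control arrays in 9 members, or 14.8%, and below all 6 in 0, against 4.29% and 3.61% of all genes. Beside the 6 genes already named these were CYP3A5, CYP4F3 and SULT1E1.

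UGT2B4, which glucuronidates bile acids and catechol oestrogens, was the member with the largest difference in both comparisons. Its log2 signal was 8.38, 8.35 and 8.13 on the YAP siRNA arrays, 7.71, 7.74 and 7.87 on the nonsense siRNA arrays and 7.41, 7.54 and 7.68 on the untreated arrays. No array of one group fell within the range of another. UGT2B4 rose by 0.51 against nonsense siRNA (SE 0.0773, limma adjusted p = 0.000906), to 143% of that level, and by 0.74 against untreated cells (adjusted p = 7.45e-05), to 167%. Between nonsense siRNA and untreated cells the difference was 0.23 (adjusted p = 0.150), which passed without YAP siRNA replicate 3, nonsense siRNA replicate 2 and untreated replicate 3 together (0.31, adjusted p = 0.00912). The UGT2B genes are close in sequence, and a probe set may read more than one of them.

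CYP1A1 and CYP1B1 oxidise polycyclic aromatic hydrocarbons and oestrogens, and both are classical targets of the aryl hydrocarbon receptor, AHR. CYP1A1 had 8.93, 9.04 and 8.88 after YAP siRNA, 8.56, 8.62 and 8.73 after nonsense siRNA and 8.86, 8.87 and 8.78 in untreated cells. The YAP siRNA arrays were the highest, but the untreated arrays lay just under them and the nonsense siRNA arrays were the lowest. CYP1A1 thus rose by 0.31 against nonsense siRNA (SE 0.0608, limma adjusted p = 0.00640) and differed by 0.11 from untreated cells (95% interval -0.02 to 0.24, adjusted p = 0.409). The nonsense siRNA level itself differed by -0.20 from untreated cells (adjusted p = 0.118). The difference was -0.22 without YAP siRNA replicate 3, nonsense siRNA replicate 2 and untreated replicate 3 together (adjusted p = 0.0408). Without nonsense siRNA replicate 1 the rise was just lost (adjusted p = 0.0508, range over 18 alternatives 0.00285 to 0.0508).

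CYP1B1 had 7.03, 7.13 and 7.03 after YAP siRNA, 6.76, 6.71 and 6.82 after nonsense siRNA and 6.76, 6.89 and 6.86 in untreated cells. The 2 control groups overlapped and the YAP siRNA arrays lay above both. The rise was 0.31 against nonsense siRNA (SE 0.0562, limma adjusted p = 0.00424) and 0.23 against untreated cells (adjusted p = 0.0330). The first passed in all 17 alternatives, while the second did not pass in 6 of 9 fits on 8 arrays. These lacked YAP siRNA replicate 1 or 2 (limma adjusted p = 0.0904 and 0.183), nonsense siRNA replicate 1 (0.0544) or untreated replicate 1, 2 or 3 (0.157, 0.0563 and 0.0582). Nonsense siRNA replicate 1 is in neither group of that comparison. CYP1A2, the hepatocyte member of the family, did not pass at 0.09 against nonsense siRNA (adjusted p = 0.466) and 0.00 against untreated cells (adjusted p = 0.996).

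**Figure D1:**
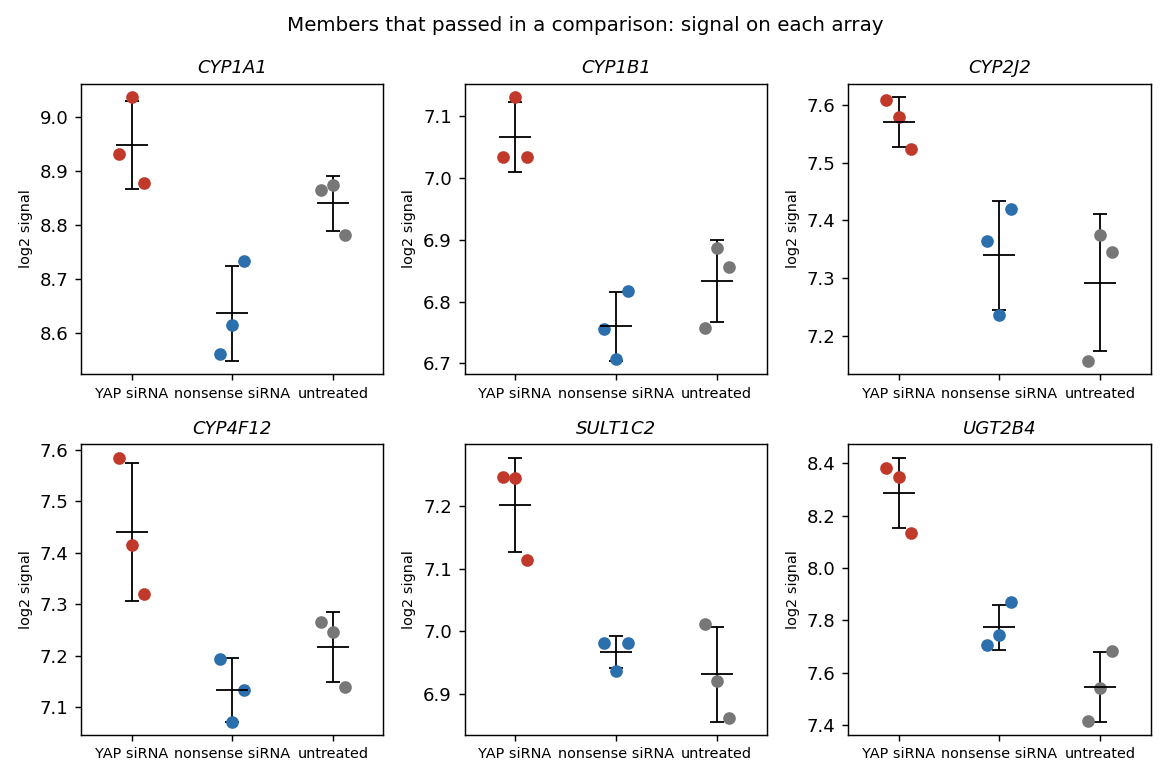
Log2 signal on each array for the 6 members that passed in a comparison; points are arrays, bars the mean and SD of 3 arrays, and each vertical axis has its own range. In UGT2B4 the 3 groups do not overlap, and in CYP1A1 the untreated arrays lie close under the YAP siRNA arrays.

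The remaining CYP2 members included enzymes of drugs, of ethanol and of fatty acids. CYP2J2, which epoxidises arachidonic acid, had 7.61, 7.58 and 7.52 after YAP siRNA, 7.36, 7.24 and 7.42 after nonsense siRNA and 7.16, 7.37 and 7.35 in untreated cells. Both control groups lay below the YAP siRNA arrays and overlapped each other. CYP2J2 rose by 0.28 against untreated cells (SE 0.0662, limma adjusted p = 0.0305), and at 0.23 against nonsense siRNA it stood just outside the threshold (adjusted p = 0.0618). It passed against nonsense siRNA among genes at or above the median signal (0.0456) and without untreated replicate 1 (0.0365). Untreated replicate 1 is in neither group of that comparison and acts there through the shared estimate of the spread. The rise against untreated cells was lost without YAP siRNA replicates 1 (adjusted p = 0.144) or 2 (0.122) or untreated replicate 1 (0.153), with a range over alternatives of 0.00991 to 0.153. CYP2D6, which metabolises many basic drugs, had a difference of 0.04 from nonsense siRNA (95% interval -0.09 to 0.17; its near copy CYP2D7 may share its signal) and CYP2E1, which oxidises ethanol, one of 0.12 (-0.02 to 0.26). CYP2C8, at background, differed by 0.01 (adjusted p = 0.956). CYP2R1, a vitamin D hydroxylase gene, did not pass at 0.15, but did so at 0.25 (adjusted p = 0.0144) without nonsense siRNA replicate 2.

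In the CYP3 family, CYP3A4 encodes the P450 enzyme that clears the widest range of drugs. It was at background, at 5.85 ± 0.09 after YAP siRNA, 5.94 ± 0.05 after nonsense siRNA and 5.95 ± 0.04 in untreated cells (SD, n = 3 each). Its close relative CYP3A5 had 7.08, 7.02 and 7.03 after YAP siRNA, 6.93, 6.92 and 6.89 after nonsense siRNA and 6.79, 6.92 and 6.89 in untreated cells. The YAP siRNA arrays of CYP3A5 were above all controls by a small margin. The difference did not pass, at 0.13 against nonsense siRNA (limma adjusted p = 0.211) and 0.18 against untreated cells (adjusted p = 0.0857); the difference from untreated cells passed with quantile normalization (adjusted p = 0.0374) and with array medians subtracted (0.0497).

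CYP4 enzymes hydroxylate the far end of fatty acids and related lipids. CYP4F12 had 7.58, 7.42 and 7.32 after YAP siRNA, 7.19, 7.07 and 7.13 after nonsense siRNA and 7.26, 7.25 and 7.14 in untreated cells. Its lowest YAP siRNA array was close to the highest untreated ones. CYP4F12 rose by 0.31 against nonsense siRNA (SE 0.0671, limma adjusted p = 0.0142), a call lost without YAP siRNA replicate 1 (adjusted p = 0.0822, range over alternatives 0.00463 to 0.0822). Against untreated cells it did not pass at 0.22 (adjusted p = 0.0944), though it did so without YAP siRNA replicate 3 (0.28, adjusted p = 0.0320). CYP4F3, which inactivates leukotrienes, did not pass at 0.18 against nonsense siRNA (adjusted p = 0.147) and 0.23 against untreated cells (adjusted p = 0.0667). Against untreated cells it passed with quantile normalization (0.0336), with array medians subtracted (0.0438) and without nonsense siRNA replicate 2 (0.0487), an array of neither group. CYP4F2, which acts on vitamin K and vitamin E, differed by 0.10 from nonsense siRNA (adjusted p = 0.511). The other 9 CYP4 genes had adjusted p-values of at least 0.381 against nonsense siRNA.

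In the UGT2 family UGT2B4 was the 1 gene of 6 that passed. UGT2B10 and UGT2B28, both at or under the background level, showed positive differences that did not pass. UGT2B10, which conjugates tertiary amines, had 6.81, 6.97 and 6.68 after YAP siRNA, 6.74, 6.35 and 6.67 after nonsense siRNA and 6.36, 6.40 and 6.61 in untreated cells. Its YAP siRNA and nonsense siRNA arrays overlapped. The difference was 0.23 against nonsense siRNA (limma adjusted p = 0.251) and 0.36 against untreated cells (adjusted p = 0.0571). UGT2B28 stood at 0.20 (adjusted p = 0.222) and 0.28 (adjusted p = 0.0820). Against untreated cells UGT2B10 passed with the 6 arrays of the comparison alone (adjusted p = 0.0178), with a variance trend (0.0449), without YAP siRNA replicate 3 (0.0322) or untreated replicate 3 (0.0362), and without the 3 arrays together (0.51, adjusted p = 0.000337). UGT2B28 passed there on the 6 arrays alone (0.0457). Without nonsense siRNA replicate 2 both passed (0.0106 for UGT2B10 and 0.0402 for UGT2B28); that array is in neither group and acts there through the shared estimate of the spread. Between nonsense siRNA and untreated cells UGT2B10 passed without the 3 arrays (0.33, adjusted p = 0.00497). UGT2B7, which glucuronidates morphine, differed by -0.04 from nonsense siRNA (95% interval -0.15 to 0.08).

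SULT1C2, a sulfotransferase gene of small phenols, had 7.25, 7.24 and 7.11 after YAP siRNA, 6.98, 6.94 and 6.98 after nonsense siRNA and 7.01, 6.92 and 6.86 in untreated cells. All 3 YAP siRNA arrays were above the 6 controls. SULT1C2 rose by 0.23 against nonsense siRNA (SE 0.0571, limma adjusted p = 0.0268) and by 0.27 against untreated cells (adjusted p = 0.0158). The first call was lost with array medians subtracted (adjusted p = 0.0583) and in 5 of 9 fits without an array, namely YAP siRNA replicates 1 (0.123) and 2 (0.117) and nonsense siRNA replicates 1 (0.0905), 2 (0.0512) and 3 (0.0730). The second was lost without YAP siRNA replicates 1 (0.0950) or 2 (0.0901) or untreated replicates 2 (0.0652) or 3 (0.0610). Its neighbours SULT1C3, at 0.01, and SULT1C4, at -0.12, did not pass against nonsense siRNA (adjusted p = 0.959 and 0.416).

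SULT2A1, which sulfates bile acids and adrenal steroids, had 7.21, 7.40 and 7.17 after YAP siRNA, 7.40, 7.06 and 7.39 after nonsense siRNA and 6.99, 7.05 and 7.01 in untreated cells. Nonsense siRNA replicate 2 lay with the untreated arrays and the other 2 nonsense siRNA arrays did not. The difference was -0.03 between YAP siRNA and nonsense siRNA (limma adjusted p = 0.934) and 0.24 between YAP siRNA and untreated cells (adjusted p = 0.156). The difference between YAP siRNA and untreated cells passed without nonsense siRNA replicate 2 (0.0347), an array of neither group, and without the 3 arrays together (0.28, adjusted p = 0.0171). SULT1A1, the main sulfotransferase of phenolic drugs, differed by -0.04 (95% interval -0.19 to 0.10) from nonsense siRNA. SULT1E1, the oestrogen sulfotransferase gene, was dim and did not pass at 0.13 (adjusted p = 0.192).

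By limma, 0 of the 16 GST genes passed in any of the 3 comparisons, while 1 had an unadjusted p under 0.05 against nonsense siRNA, 2 against untreated cells and 2 between nonsense siRNA and untreated cells. These are 6.25%, 12.5% and 12.5% of the GST genes, beside 15.8%, 15.8% and 19.5% of all genes. Counts this small among 16 genes cannot be told from those shares. GSTP1, the pi class enzyme, had 11.77, 11.79 and 11.78 after YAP siRNA, 11.67, 11.77 and 11.93 after nonsense siRNA and 11.69, 11.76 and 11.67 in untreated cells. Its groups overlapped, and the 95% interval of the difference between YAP siRNA and nonsense siRNA was -0.14 to 0.12. GSTA1, a hepatocyte enzyme at background here, differed by 0.04 (95% interval -0.07 to 0.16), GSTM1 by 0.13 (adjusted p = 0.319) and GSTT1 by 0.07 (-0.07 to 0.22). GSTO1, which reduces organic arsenic compounds, had 9.41, 9.26 and 9.34 after YAP siRNA, 9.60, 9.33 and 9.58 after nonsense siRNA and 9.19, 9.24 and 9.23 in untreated cells. As in SULT2A1, nonsense siRNA replicate 2 was the lowest of its group. GSTO1 differed by -0.17 from nonsense siRNA (limma adjusted p = 0.237) and passed without that array (-0.25, adjusted p = 0.0180). GST classes A and M, mu class genes included, hold close paralogs, so their signals are not certain to be those of 1 gene.

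**Figure D2:**
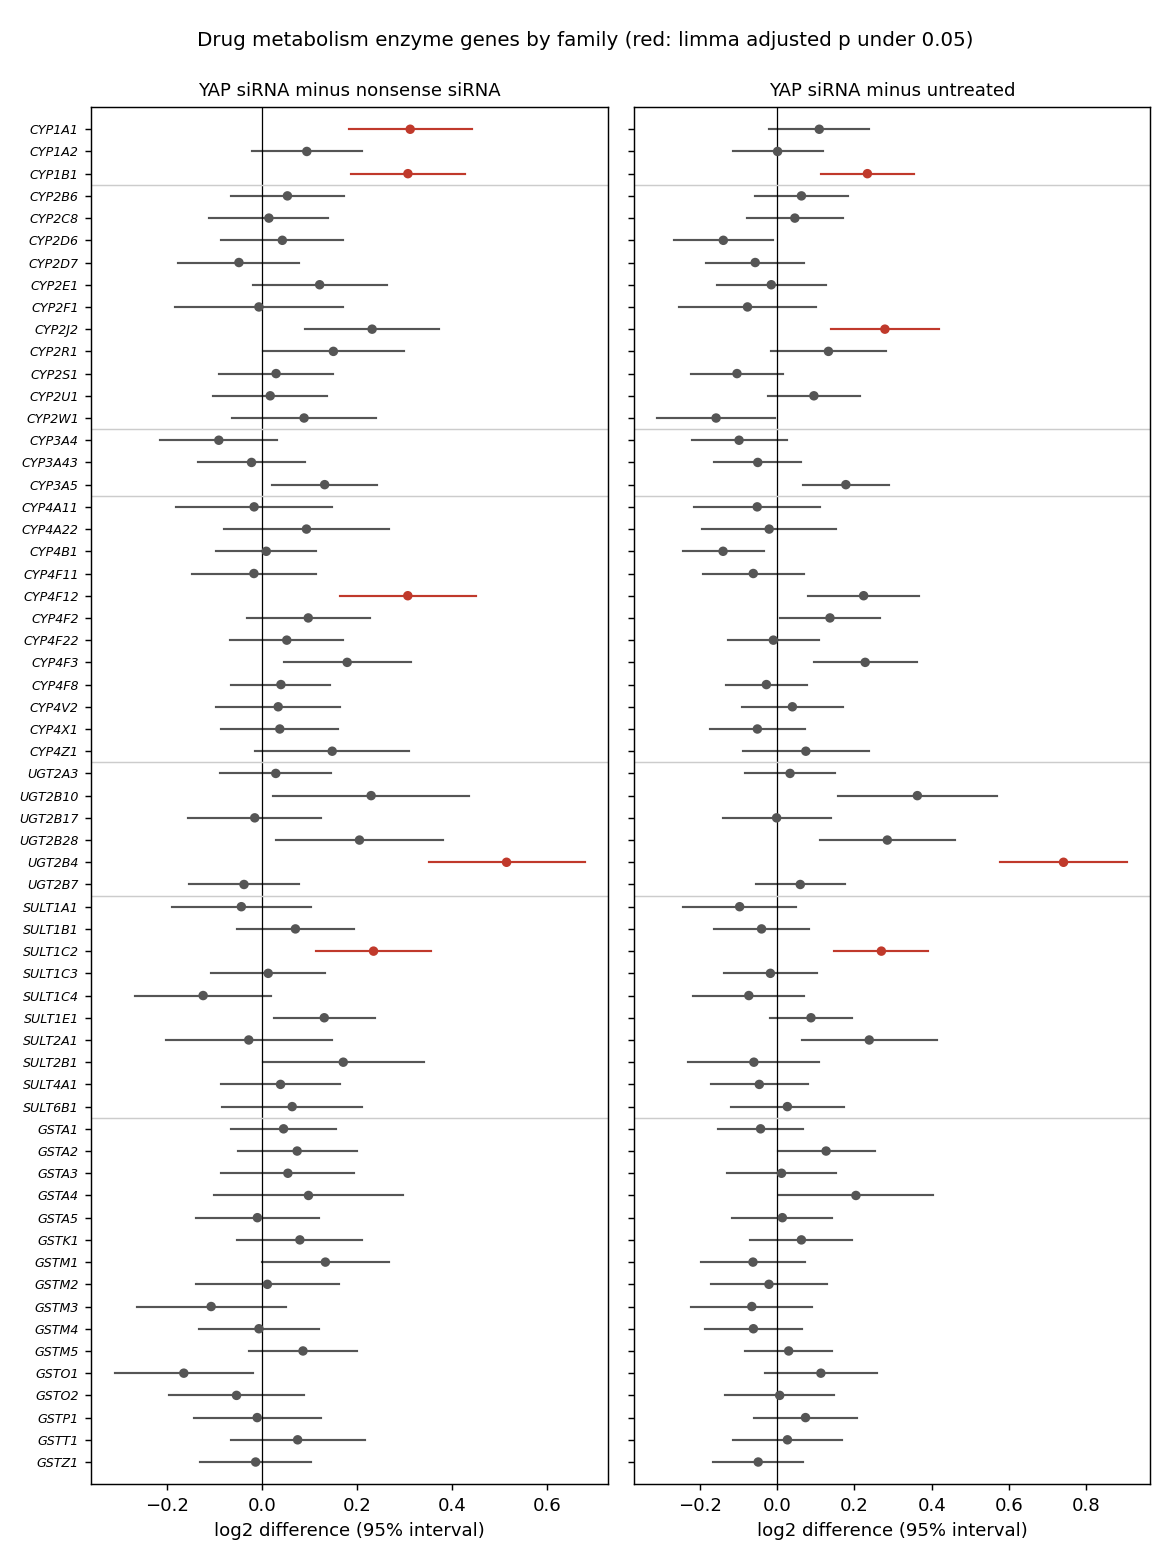
Log2 difference with its 95% interval for each of the 61 members, grouped by family, for YAP siRNA minus nonsense siRNA on the left and YAP siRNA minus untreated on the right; red marks genes that passed. Red points lie to the right of 0 in both panels, and UGT2B4 has the largest difference.

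Among members above the background level that did not pass, the 27 against nonsense siRNA had 95% intervals of the signal difference inside -0.5 to 0.5, with bounds from -0.31 for GSTO1 to 0.37 for CYP2J2. The 28 against untreated cells did too, with bounds from -0.31 for CYP2W1 to 0.41 for SULT2A1. These intervals are not adjusted for the number of genes. For the 29 members at or under the background level an interval describes the probe signal and does not bound the change of the transcript.

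Between nonsense siRNA and untreated cells, the comparison that holds the transfection with a control siRNA, 0 of 61 members passed by limma. An unadjusted p under 0.05 was found for 10 members, or 16.4%, of which 3 were higher and 7 lower. The share of all genes was 19.5%, both directions together. Over all genes 0.337% were called higher and 0.277% lower (62 and 51 genes, or 32 and 17 with array medians subtracted), a share that would come to less than 1 of 61. The median difference was -0.03 among members and -0.02 over all genes. GSTO1 came nearest to the threshold, at 0.28 (adjusted p = 0.0756). Without nonsense siRNA replicate 2 there were 5 calls, or 8.20% of members, close to the 7.98% of all genes that passed in that fit: SULT2A1 at 0.38 (adjusted p = 0.00542), GSTO1 at 0.36 (0.00379) and GSTA4, which conjugates aldehydes of lipid peroxidation, at 0.25 (0.0331) were higher, and SULT2B1 at -0.31 (0.0252) and CYP2W1 at -0.28 (0.0357) were lower. SULT2B1, GSTA4 and CYP2W1 were outside the rule for named genes and are given because of this count.

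Many of these genes lie beside relatives in tandem clusters, which the selection by name did not use. In the order of the RefSeq annotation on GRCh38.p14, 6 groups of at least 3 members shared a chromosome and a subfamily, a GST class or, for UGT2, the family. Of the 6 UGT2 genes on chromosome 4, the gene that passed, UGT2B4, was next to UGT2B28 in this order. UGT2B28 did not pass at 0.20 against nonsense siRNA. UGT2B10, which lay away from them between UGT2B17 and UGT2A3, did not pass at 0.23. UGT2B7, UGT2A3 and UGT2B17 had differences from -0.04 to 0.03 against nonsense siRNA. Of the 6 CYP4F genes on chromosome 19, CYP4F12 passed, its neighbours CYP4F3 and CYP4F2 did not pass at 0.18 and 0.10, and the outer genes CYP4F22, CYP4F8 and CYP4F11 were between -0.02 and 0.05. In the SULT1C cluster on chromosome 2 the middle gene of 3 passed. The 5 GSTA genes on chromosome 6, the 5 GSTM genes on chromosome 1 and the 3 CYP3A genes on chromosome 7 had 0 calls in both comparisons. With 4.53% and 3.09% of all genes called, groups this small cannot be told from that share by 0 calls. CYP3A4, CYP3A43, GSTA1, GSTA2, GSTA3, GSTA5 and GSTM5 also lay at or under the background level.

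**Figure D3:**
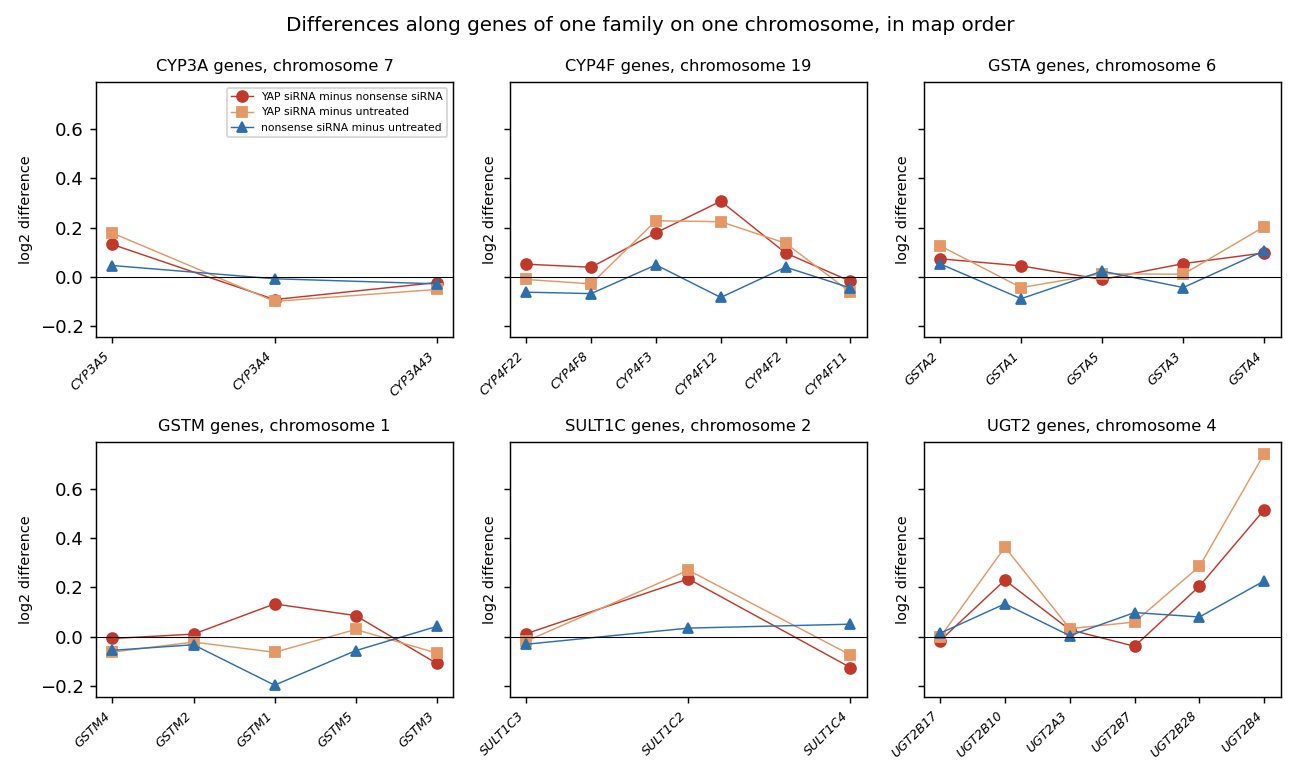
Log2 differences of the 3 comparisons for genes of 6 clusters, placed in map order with even spacing; lines join neighbours for the eye only. Between YAP siRNA and nonsense siRNA, UGT2B4, CYP4F12 and SULT1C2 stand above the genes around them.

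Promoter sequences were at hand from RefSeq (GRCh38.p14) for 48 of the 61 member genes and for 3 of the 6 that passed, and these 3 are shown as the stretch next to which the changed transcripts start. Each runs from 250 bases before to 50 after the start, 5′ to 3′ on the strand of the gene. Capitals mark matches on either strand to 4 short motifs: GGAATG, the core bound by the TEAD partners of YAP; GCGTG, the core bound by AHR with ARNT; TATAAA, the TATA box; and GTTAAT, part of the site of the liver factor HNF1. CYP1A1 lies at chr15:74725479-74725778 on the minus strand, CYP2J2 at chr1:59926724-59927023 on the minus strand and SULT1C2 at chr2:108288645-108288944 on the plus strand.
CYP1A1: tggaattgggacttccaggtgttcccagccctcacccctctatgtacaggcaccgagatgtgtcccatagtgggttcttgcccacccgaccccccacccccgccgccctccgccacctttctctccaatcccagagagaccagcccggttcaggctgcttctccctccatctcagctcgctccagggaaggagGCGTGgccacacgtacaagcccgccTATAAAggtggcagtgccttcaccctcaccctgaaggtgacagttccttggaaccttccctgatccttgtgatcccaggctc
CYP2J2: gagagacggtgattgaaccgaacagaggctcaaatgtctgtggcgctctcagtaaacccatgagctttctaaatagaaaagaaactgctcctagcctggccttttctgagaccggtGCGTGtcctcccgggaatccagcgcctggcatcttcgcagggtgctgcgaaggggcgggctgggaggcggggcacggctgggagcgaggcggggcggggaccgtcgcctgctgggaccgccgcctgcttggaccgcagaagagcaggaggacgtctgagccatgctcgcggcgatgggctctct
SULT1C2: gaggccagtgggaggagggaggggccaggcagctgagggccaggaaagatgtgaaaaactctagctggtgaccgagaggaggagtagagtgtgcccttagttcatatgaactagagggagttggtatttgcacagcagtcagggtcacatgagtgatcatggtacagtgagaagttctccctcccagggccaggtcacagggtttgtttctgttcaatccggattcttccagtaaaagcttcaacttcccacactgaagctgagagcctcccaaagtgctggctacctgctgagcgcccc

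CYP1A1 had 1 AHR core and 1 TATA box, CYP2J2 had 1 AHR core and SULT1C2 had 0 matches. The AHR core occurs in 36.5% of the 35116 promoter entries and in the promoters of 14 of the 48 member genes. The TEAD core occurs in 14% of entries and in 4 of the 48 member genes, the TATA box in 11.5% and 16, and the HNF1 motif in 6.9% and 5. None of the 3 windows held the TEAD core. A match to so short a motif describes the letters and is not a binding site, and its absence from this window says nothing of the factor.

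Of the genes around these enzymes, the list of electron donors and suppliers of cosubstrates had 1 higher and 2 lower of 16 measured after YAP siRNA against nonsense siRNA, beside 1.92% and 2.61% of all genes. In this and the lists that follow a count of 1 gene is too small to be told from those shares. POR, the reductase gene that passes electrons to all microsomal P450 enzymes, had 9.31, 9.40 and 9.35 after YAP siRNA, 9.08, 9.11 and 9.07 after nonsense siRNA and 9.18, 9.22 and 9.33 in untreated cells. It rose by 0.26 against nonsense siRNA (limma adjusted p = 0.00945) and did not pass against untreated cells, at 0.11 (adjusted p = 0.345), the same order of groups as in CYP1A1. The POR call was lost when nonsense siRNA replicate 1 was left out (adjusted p = 0.0508), and likewise YAP siRNA replicate 2 (0.0541).

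GCLM, the modifier subunit gene of the enzyme that begins glutathione synthesis, went the other way. It had 7.84, 8.03 and 7.87 after YAP siRNA, 8.52, 8.43 and 8.67 after nonsense siRNA and 8.30, 8.30 and 8.33 in untreated cells, with no overlap between groups. GCLM fell by 0.63 against nonsense siRNA (limma adjusted p = 4.67e-05) and fell by 0.39 against untreated cells (adjusted p = 0.00303), and it passed in all 18 alternatives of each comparison. The catalytic subunit gene GCLC did not pass, at -0.07 (adjusted p = 0.758). UGP2, which makes the precursor of the UGT cosubstrate, fell by 0.26 against nonsense siRNA (adjusted p = 0.0468), a call lost in 6 of 9 fits on 8 arrays (adjusted p at most 0.218, when nonsense siRNA replicate 3 was left out). Against untreated cells GCLM was the 1 gene of this list that passed.

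Among 19 transcription factors of drug metabolism and liver identity, 1 was higher and 2 lower against nonsense siRNA, and 1 higher and 0 lower against untreated cells, where all genes had 1.92% higher and 2.61% lower, and 1.63% and 1.46%. PPARGC1A, a coactivator of nuclear receptors, rose by 0.26 against nonsense siRNA (limma adjusted p = 0.0214) and by 0.32 against untreated cells (adjusted p = 0.00739). The first call was lost without YAP siRNA replicate 2 (adjusted p = 0.110) or nonsense siRNA replicates 1 (0.0679) or 3 (0.0944). NR3C1, the glucocorticoid receptor gene, fell by 0.27 against nonsense siRNA (adjusted p = 0.0109), which was lost when YAP siRNA replicate 3 (0.0517) or nonsense siRNA replicate 1 (0.0690) was left out. FOXA1, a pioneer factor of liver, fell by 0.22 (adjusted p = 0.0479) and was lost in 8 of 9 fits on 8 arrays (adjusted p at most 0.146, when YAP siRNA replicate 3 was left out). AHR itself differed by -0.04 (95% interval -0.15 to 0.08) and its partner ARNT did not pass at 0.17 (adjusted p = 0.149).

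Of 7 AHR target genes 2 were higher and 0 lower against nonsense siRNA, and both, CYP1A1 and CYP1B1, are members; TIPARP, another target, differed by 0.02 (95% interval -0.10 to 0.15). Against untreated cells CYP1B1 was the 1 gene of this list that passed. Of 17 target genes of NRF2, the factor that answers oxidative stress, 0 were higher and GCLM was the 1 lower against nonsense siRNA, and against untreated cells 1 was higher, AKR1C1 at 0.22 (limma adjusted p = 0.0334), and GCLM was again lower. AKR1C1 was lost in 6 of 9 fits on 8 arrays (adjusted p at most 0.189, when YAP siRNA replicate 2 was left out) and with the mean of its probe sets (0.137). NQO1, on both lists, did not pass at 0.11 against nonsense siRNA (adjusted p = 0.519).

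Of 33 other oxidising, hydrolysing and conjugating enzymes, 2 were higher and 0 lower against nonsense siRNA and 7 higher and 0 lower against untreated cells, where 1.92% and 1.63% of all genes were higher. AOX1, aldehyde oxidase, had 7.37, 7.36 and 7.27 after YAP siRNA, 6.90, 6.86 and 6.99 after nonsense siRNA and 7.03, 7.01 and 6.99 in untreated cells. AOX1 rose by 0.41 (limma adjusted p = 0.000288) against nonsense siRNA and by 0.32 (adjusted p = 0.00317) against untreated cells. ADH6, an alcohol dehydrogenase gene, had 6.98, 6.995 and 6.97 after YAP siRNA, 6.62, 6.60 and 6.68 after nonsense siRNA and 6.55, 6.52 and 6.55 in untreated cells. ADH6 rose by 0.34 (adjusted p = 0.000574) and 0.44 (adjusted p = 0.000142). Both genes passed in all 17 alternatives of each comparison, and in both the YAP siRNA arrays lay above all controls. AKR1C2 rose by 0.43 against untreated cells (adjusted p = 0.0173) and stood at 0.02 against nonsense siRNA. The epoxide hydrolase gene EPHX2 rose by 0.32 against untreated cells (adjusted p = 0.0135). Each was lost in 3 of 9 fits on 8 arrays (adjusted p at most 0.0965 for AKR1C2 and 0.0852 for EPHX2, both when YAP siRNA replicate 1 was left out).

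Of 19 drug and bile salt transporters, 1 was higher and 0 lower against nonsense siRNA and 3 higher and 0 lower against untreated cells, beside 1.92% and 1.63% of all genes higher. SLCO4C1, an organic anion carrier, had 8.16, 8.31 and 8.12 after YAP siRNA, 7.82, 7.77 and 7.71 after nonsense siRNA and 7.62, 7.66 and 7.62 in untreated cells, with no overlap. It rose by 0.43 (limma adjusted p = 0.000334) and 0.57 (adjusted p = 7.28e-05). With the mean of its probe sets the rises were 0.24 (adjusted p = 0.0116) and 0.36 (adjusted p = 0.000865). Against untreated cells SLC22A9, another anion carrier, rose by 0.38 (adjusted p = 0.00604) and ABCB1, the multidrug efflux pump gene, by 0.31 (adjusted p = 0.0283). ABCB1 was lost in 5 of 9 such fits (adjusted p at most 0.174, when YAP siRNA replicate 2 was left out).

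**Figure D4:**
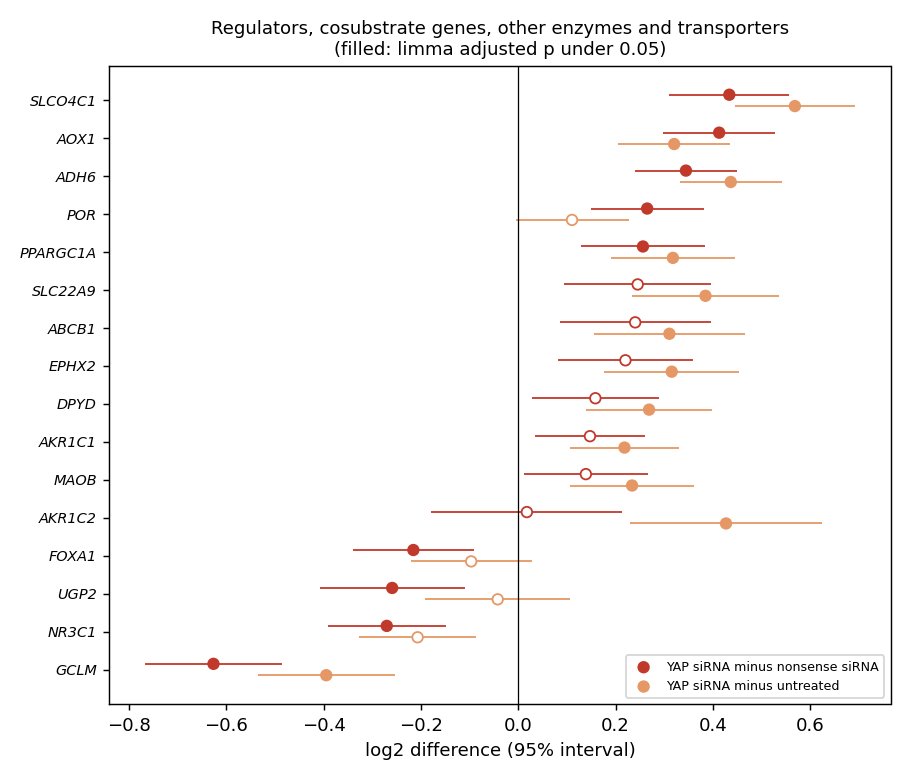
Log2 difference with its 95% interval for the genes of the 5 lists outside the enzyme families that passed in either comparison; filled points passed. GCLM has the largest fall, and POR, FOXA1, UGP2 and NR3C1 have filled points for nonsense siRNA only.

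The median difference against nonsense siRNA was 0.03 for electron donors and cosubstrates, -0.02 for transcription factors, 0.01 for NRF2 targets, 0.11 for AHR targets, 0.02 for other enzymes and 0.07 for transporters, beside 0.01 over all genes. Of the 7 AHR targets 3 are members, CYP1A1, CYP1A2 and CYP1B1, so that median is not separate from the results above. Between nonsense siRNA and untreated cells 0 genes passed in any of the 6 lists by limma. An unadjusted limma p under 0.05 was found in 50% of electron donors and cosubstrates (8 of 16) and 31.6% of transporters. The shares were 29.4% of NRF2 targets, 28.6% of AHR targets, 26.3% of transcription factors and 18.2% of other enzymes, beside 19.5% of all genes. Without nonsense siRNA replicate 2 the calls there were 8 of 16 for electron donors and cosubstrates, 3 of 33 for other enzymes and 2 of 19 for transcription factors. They were 2 of 17 for NRF2 targets, 1 of 19 for transporters and 1 of 7 for AHR targets, in a fit where 7.98% of all genes passed.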

How the data were processed

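Per the labels, biotinylated cRNA was made from total RNA of the 9 samples by the standard Affymetrix protocol. The values are log2 signals as deposited by the authors; their unit was inferred from the range, and summarisation and normalization were not stated (not given in the sources used here). Probe sets were named from the platform annotation supplied with the data: 19460 listed 1 gene, 1754 several and 12083 none. Where a gene had more than one (769 genes), its brightest probe set by the mean of 9 arrays was kept, which gave 18417 genes.

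limma 3.58.1 in R 4.3.3 was fitted to all 9 arrays and all genes with a mean per group (prior degrees of freedom 9.29). Tests were two-sided, with Benjamini-Hochberg adjustment over all genes and a threshold of 0.05. SD is over 3 arrays, SE and the 95% interval are those of the fitted difference, with a precision set by the number of arrays. On simulated data with known changes, a contrast made like that between YAP siRNA and nonsense siRNA recovered 8% of changes of 0.2, 60% of 0.3 and 98% of 0.5 among 18417 genes (50 of each size), with 7 false calls. The simulated noise was independent between genes, without the deviations that the real arrays share. Fewer genes were changed than passed in the data, so these rates need not hold for the real contrast.

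Members and lists were chosen with earlier results of these data known. Genes named were all members that passed, 17 measured members given whatever their result, members near the threshold or called under an alternative, up to 4 passing genes per list and comparison, and, chosen after their values were seen, those cited to complete a family, cluster or list. Genes of the lists and of the fixed names that had no probe set of their own were not analysed here. Deviations of same-numbered arrays correlated from -0.34 to 0.34 over 9 pairs, some together and some opposed, so numbers were not treated as pairs. Alternatives were other scalings, a filter on dim genes, other uses of probe sets, another variance model, 6 arrays only, a stricter threshold, the replicate block and leaving out arrays. The set without 3 arrays was chosen after seeing the data. Leaving out an array of the third group changes neither group of a comparison, only the shared estimate of the spread. Promoters were from RefSeq, and Python 3.11.15 (matplotlib 3.10.9) drew the figures.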

Additional observations from a re-analysis of the deposited data

How the results depend on the processing

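The alternatives were run for 28 differences that passed, those of members and of up to 4 genes per list and comparison. All 28 kept their sign in every alternative, but they had been chosen for passing on the same arrays. Several alternatives also leave the difference itself unchanged, so the kept sign is no separate support. The marker genes AHSG and COL1A2 were not among the 28. UGT2B4 passed in all 18 alternatives of both YAP siRNA comparisons at the threshold of 0.05, and CYP1B1 in all 17 against nonsense siRNA. The number of members called against nonsense siRNA (5 in the report) was 3 among genes at or above the median signal, since CYP1B1, CYP4F12 and SULT1C2 lay under it and CYP2J2 passed, 3 at an adjusted p under 0.01, 5 with the replicate block and from 3 to 6 without 1 array. Against untreated cells (4 in the report) it was 2 among the brighter genes, 1 at the stricter threshold, 3 with the replicate block, from 1 to 8 without 1 array, and 8 without YAP siRNA replicate 3, nonsense siRNA replicate 2 and untreated replicate 3 together. With the block, CYP2J2 was lost there (adjusted p = 0.0530), as were FOXA1 (0.0646) and UGP2 (0.0575) against nonsense siRNA, and no other of the 28. Between nonsense siRNA and untreated cells (0 in the report) it was 0 with the replicate block and with every other scaling, filter and model tried. It was from 0 to 5 without 1 array, with 5 without nonsense siRNA replicate 2, where 7.98% of all genes passed. Without the 3 arrays together it was 8 of 61, where 12.6% of all genes passed. The first count was 6 (5 higher and GSTO1 lower) and the second 8 without nonsense siRNA replicate 2; for the second, both groups of the comparison were unchanged and only the shared estimate of the spread differed. Scaling gave 5 and 6 calls by quantile normalization and 4 and 6 with array medians subtracted. Over all genes, 834 passed between YAP siRNA and nonsense siRNA, and 396 at the stricter threshold, from 426 to 1231 without 1 array and 1287 without the 3 arrays; 569 passed between YAP siRNA and untreated cells, and 250, from 279 to 775, and 1560 under the same changes. Between nonsense siRNA and untreated cells 113 passed, and 11, from 11 to 1470 (the highest without nonsense siRNA replicate 2), and 2319, with 65 under the replicate block, 49 with array medians subtracted and 67 on 6 arrays; the cause was not tested. For the 17 members given whatever their result and the members that passed, 48 differences did not pass. Of their 878 alternative values 29 had another sign and 12 passed. Members outside these, such as UGT2B10, UGT2B28, CYP4F3, CYP2R1 and GSTO1, also passed in some alternatives and are not in that count. Dim probe sets limit what can be said of the 29 members at or under the background level.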
